A study of Mus musculus with 5 samples.

Results

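The mRNAs of the cytosolic ribosomal proteins were followed through an RNA immunoprecipitation of CYFIP1 from mouse hippocampus. CYFIP1 binds the fragile X protein FMRP and belongs to the WAVE complex, which regulates actin. A gene counted as a member when its symbol was that of a protein of the large (Rpl, Rplp) or small (Rps) cytosolic subunit and a deposited region lay on it. There were 32 such genes among 4727 genes with a region on them, 18 of the large subunit and 14 of the small one. The GENCODE M21 annotation holds 84 protein-coding genes with such symbols, so 52 had no region in any list. All 32 are annotated as protein-coding, and named pseudogenes were left out.

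The samples were hippocampi of C57BL/6 mice. The labels call 2 mice knock-in and 1 wild-type, and give no further allele, age or sex. That the knock-in carries an HA tag on CYFIP1 follows from the antibody and the aim of the series, not from a genotype in the labels. Anti-HA was used on both knock-in mice and on the wild-type mouse, and nonspecific mouse IgG on those knock-in mice too, which makes 5 libraries in groups of 2, 1 and 2. Each of 4 deposited lists pairs 1 knock-in HA library with 1 control, either the IgG library of that mouse or the wild-type HA library, and gives the reads of both in each region. Both wild-type lists therefore share 1 control library, and each HA library enters 2 lists. The labels do not say how many hippocampi went into a library, and a single wild-type library carries no replicate error.

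Ribosomal proteins are made in nearly equal amounts for each ribosome, and their mRNAs are among the most abundant of most cells. These mRNAs typically begin with a short run of pyrimidines, the 5′ terminal oligopyrimidine (TOP) motif, through which mTOR signalling and LARP1 set their translation. Neurons also carry ribosomal protein mRNAs into dendrites and axons, where FMRP and CYFIP1 are studied as regulators of local translation.

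The pyrimidine run for which these mRNAs are known was looked for in RefSeq, since the rule for members did not use it. RefSeq start-site entries on GRCm38.p6 matched 22 of the 32 members by symbol, with 25 entries. For the 8 of the 12 members with the most reads that had an entry, 30 bases are shown so that the runs can be compared. They are given on the sense strand, which reads as the RNA does. Capitals mark the longest run of C and T in a window from 20 bases before to 50 bases after the RefSeq start.
Rps7: tgtccccaCCTCTTTTCTTCCgccacccgg
Rpl37: gcgggggtgCTTTCTCTTCCggtctctttg
Rpl18: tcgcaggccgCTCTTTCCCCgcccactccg
Rps6: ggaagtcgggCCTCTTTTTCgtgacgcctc
Rps9: aaccgccttgTCTCTCTTTgtctcgggcct
Rpl31: tcgccacaCCTCTTCCTCCTCgcctccccg
Rpl22: atatcagcgctgCTTCTggaatgttccagc
Rpl27a: gtgagCTCCTCCCTTTTCCCTTTCTgccac

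These stretches lie at chr12:28635910-28635939 (minus strand) for Rps7, chr15:5116632-5116661 (plus) for Rpl37 and chr7:45718062-45718091 (plus) for Rpl18. Those of Rps6 and Rps9 lie at chr4:86857349-86857378 (minus) and chr7:3704025-3704054 (plus). Those of Rpl31, Rpl22 and Rpl27a, all on the plus strand, lie at chr1:39367825-39367854, chr4:152324414-152324443 and chr7:109519186-109519215. The runs had 13 bases in Rps7 and Rpl31 and 20 bases in Rpl27a. Relative to the RefSeq start they began at -18 in Rpl31, -1 in Rps6, 22 in Rps7 and 28 in Rpl37. Not all lay at the start, so a marked run need not be the TOP motif. The Rpl22 stretch comes from an entry whose start lies upstream of the M21 gene model, with 1.30 kb between the stretch and the gene, and that of Rpl18 lies 2.61 kb inside the model, so these 2 need not be the starts of the RNAs measured. A second Rpl22 entry, which spans the start of the model, had a longest run of 4 bases. Rpl3 and Rpl8 were among the members without an entry.

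A run of at least 8 C or T was present in 17 of the 25 member entries (68.0%), against 25.4% of 32851 RefSeq entries. Over the 76 entries of all ribosomal protein genes, listed or not, the share was 67.1%, so it did not set the listed ones apart. The median longest run was 10 bases in members and 6 bases over all entries. Only the sense strand was searched. A run in this window is a description of letters, not evidence that a transcript starts there or that a factor binds.

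**Figure D1:**
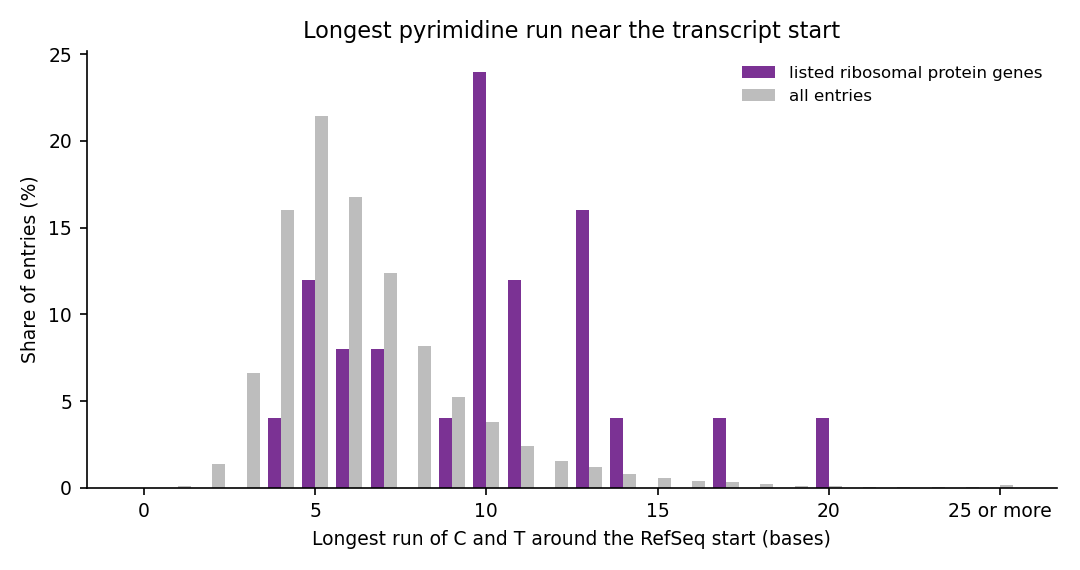
Longest run of C and T (bases, x axis) in the 70-base window around the RefSeq start, as the share of entries (%, y axis), for the 25 entries of listed ribosomal protein genes (purple) and all 32851 entries (grey). The entries of members have their median at 10 bases and all entries at 6.

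Before the members, reads on the mRNA of Cyfip1 and on markers of the tissue were examined. The lists hold RNA reads only and do not show how well the protein was precipitated. Cyfip1 mRNA held 6101 HA against 67 IgG reads in mouse 1 and 6186 against 115 in mouse 2, and against wild-type HA it held 431 and 416 control reads. Of 36 markers of brain cell types, 8 had a region, among them Neurod6, Prox1 and Slc17a7 of neurons, Slc1a2, Slc1a3 and Aldh1l1 of astrocytes and Mag of oligodendrocytes. No interneuron, microglial, endothelial, blood or choroid plexus marker had one. However, 24 of the 36 markers, among them the neuronal genes Snap25, Rbfox3 and Camk2a, lie on chromosomes with few regions in every list. Of these only Slc1a2 had a region, and the absence of the others was not a measurement. Npy, Pvalb, C1qa, Hbb-bs and Folr1 had no region although their chromosomes held many regions in some list. The lists hold only reads inside regions, and total depth is unknown. Those reads came to 99575 and 64055 HA reads over IgG (mice 1 and 2), with 25747 and 31872 IgG reads. Over wild type they came to 154408 and 166760 HA reads, with 181527 and 180957 wild-type reads.

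Regions were dense on few chromosomes in each list, and all member regions lay there. A chromosome was called densely listed when it held at least 100 regions, a limit chosen after the data were seen. In both wild-type lists nearly every ribosomal protein gene on such a chromosome had a region. For mouse 1 this was 28 of 31 (chromosomes 1, 4, 6, 7, 12 and 15), against 41.6% of all protein-coding genes there. For mouse 2 it was 20 of 21 (chromosomes 1, 4, 6, 12, 15 and X), against 42.9%. The gene absent from both was Rpl10l, a retrogene copy of Rpl10 known for its expression in testis, and Rpl13a was among those absent in mouse 1.

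Over IgG, mouse 2 listed 7 of the 8 ribosomal protein genes on chromosomes 12 and 15, against 55.7% of protein-coding genes, and again Rpl10l was the absent one. Mouse 1 listed 7 of 21 on chromosomes 1, 4, 6, 12, 15 and X, against 36.5%, which is close to the share of all genes. Unlisted there were, among others, Rpl3, Rpl7, Rpl11 and Rps6, which all had regions in the same HA library when it was set against wild type. On the remaining chromosomes no list held a member, and in the mouse 1 list over wild type 53 of the 84 genes lay on chromosomes with 0 to 12 regions each. Their mRNAs were not measured there.

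**Figure D2:**
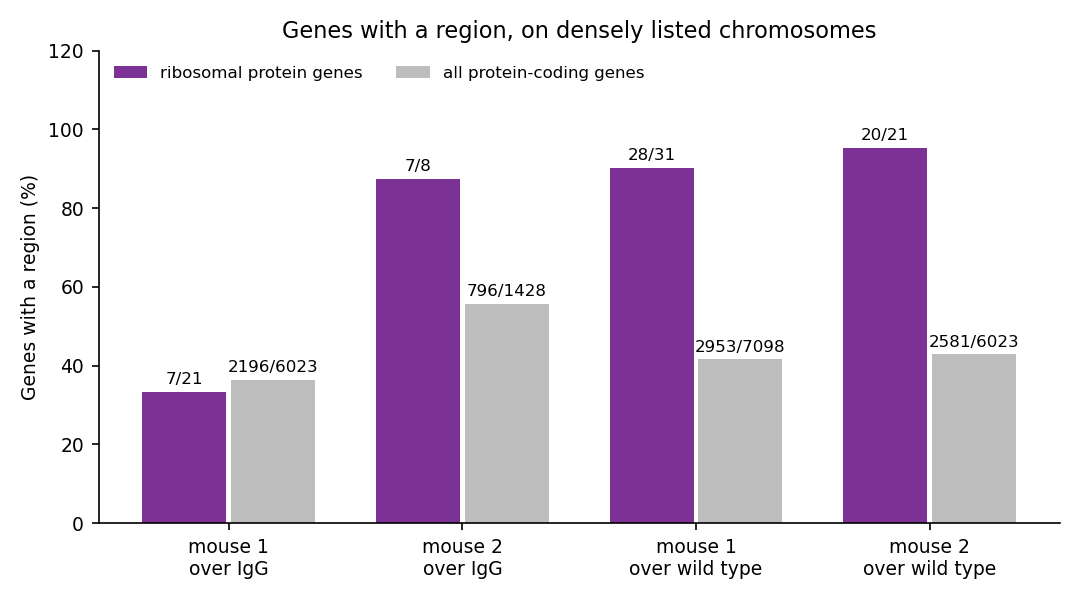
Share of genes with a region (%, y axis) on the densely listed chromosomes of each list (x axis), for ribosomal protein genes (purple) and all protein-coding genes (grey), with the numbers of genes above the bars. The shares are 33.3% against 36.5% in mouse 1 over IgG and 87.5%, 90.3% and 95.2% against 55.7%, 41.6% and 42.9% in the other lists.

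The member regions were broad and covered the genes rather than a site in them. Of 52 distinct pairs of a region and a member, the deposited annotation has 15 around the whole gene, 16 across its start, 12 across its end and 9 inside it. On M21, 14 of the 15 covered the whole gene, and the region of Rpl28 covered 78.8% of it. All 52 touched exon and coding sequence of M21. Their median length was 3697.5 bp (range 615 to 29800 bp). By the deposited annotation whole genes were spanned in 42.9% and 28.6% of the member pairs over IgG (mice 1 and 2), against 1.44% and 1.81% for other protein-coding genes. Over wild type the shares were 33.3% and 22.7%, against 3.26% and 1.54%. Ribosomal protein genes are short, with a median length of 3232 bp here. In 19 of the 52 pairs the region also lay on another protein-coding gene, in 16 it held a snoRNA gene, and in 21 it held neither these nor any other gene. Reads of such neighbours cannot be told apart from those of the member, nor can reads of an antisense gene, since no source used here states the use of strand.

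Ribosomal protein genes have many near-identical processed pseudogenes, and reads could be split between them. The annotation names 99 pseudogenes of 22 of the members. Of these, Rpl18-ps1 and Rpl18-ps2 had a region of their own, each with 2 HA reads. No source used here states how reads with several matches were placed, so every member value holds that uncertainty.

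Against IgG from the same mice, members were on the low side of the precipitated RNA. A fold below is the HA reads over the control reads of a gene, summed over its regions and divided by the median ratio of the list's regions with at least 20 reads. That median was 2.89 in mouse 1 and 0.947 in mouse 2. Among members with at least 20 reads in a list, 3 in mouse 1 and 5 in mouse 2, the median fold was 0.378 and 0.497, and over all 1097 and 719 such genes it was 0.839 and 0.822. Below the list median were 3 of 3 and 5 of 5, against 60.7% and 64.8% of all such genes. At or below 0.5-fold were 3 of 3 members and 3 of 5, against 20.1% and 18.9%. No member reached 2-fold, against 9.66% and 8.76%.

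In small-subunit genes the lowest values were those of Rps7, whose protein helps assemble the small subunit. Its whole gene lay in chr12:28627441-28636080 (mm10) in mouse 1, and chr12:28631001-28636000 covered 97.1% of it in mouse 2, with no other gene in either region. Rps7 held 21 HA against 29 IgG reads in mouse 1 and 16 against 41 in mouse 2. IgG was the higher of the pair in both mice. The fold was 0.250 in mouse 1, with a 95% counting interval of 0.136 to 0.454, and 0.412 in mouse 2, with one of 0.216 to 0.751. All intervals are exact counting intervals for 1 pair of libraries. They cover counting error only, because PCR copies of a molecule are not independent.

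Rps29, a small zinc-binding protein near the mRNA channel, held 5 HA against 6 IgG reads in mouse 1 and 5 against 11 in mouse 2. Its folds of 0.288 and 0.480 have upper bounds of 1.13 and 1.50, so no difference from the list median was detectable at this number of reads.

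In large-subunit genes, Rpl8 and Rpl3 encode core proteins near the peptidyl transferase centre. Rpl8 held 23 HA against 21 IgG reads in mouse 1 and 16 against 34 in mouse 2, in regions at chr15:76900126-76906395 and chr15:76899556-76906110 that also lie on Commd5. HA was slightly the higher of the pair in mouse 1 and IgG clearly the higher in mouse 2. Relative to each list's median Rpl8 was 0.378-fold (interval 0.200 to 0.719) and 0.497-fold (0.256 to 0.926).

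Rpl3, with the most reads of all members, had an IgG region only in mouse 2, at chr15:80077591-80083575 with snoRNA genes inside. It held 32 HA against 74 IgG reads, 0.457-fold (interval 0.292 to 0.700). This was the largest number of IgG reads on any member.

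Rpl37, a zinc-binding protein of the large subunit, held 21 HA against 17 IgG reads in mouse 1 and 15 against 31 in mouse 2. Its whole gene lay in chr15:5116606-5123730 in mouse 1 and chr15:5116606-5120595 in mouse 2, with Snord72 inside. The folds were 0.427 (interval 0.214 to 0.861) and 0.511 (0.256 to 0.976). As in Rpl8, HA exceeded IgG in reads in mouse 1 only, but both folds lay below the median.

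The remaining members were listed over IgG in 1 mouse. In mouse 1, Rpl31, whose protein sits near the exit of the peptide tunnel, held 8 HA against 11 IgG reads, 0.251-fold (interval 0.0877 to 0.686). Its region covered 25.7% of the gene and also lay on Tbc1d8, so these reads cannot be given to Rpl31 alone. Rpl36a held 5 and 6, and Rpl22, an RNA-binding protein of the large subunit, held 9 and 3, at 1.04-fold the highest member of that list. In mouse 2, Rpl30 held 11 and 18, 0.646-fold and the highest there among members with at least 20 reads, and Rpl36al, a paralog of Rpl36a, held 8 and 8 (1.06-fold). Counting all 7 listed members per mouse, the interval lay below 1 for 4 in each, against 10.5% and 18.4% of all listed genes (mice 1 and 2), and above 1 for 0, against 3.37% and 9.07%.

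The position relative to the median rests on different raw ratios in the mice. HA did not outnumber IgG in 4 of 7 members of mouse 1, where this held for 4.70% of all listed genes, and in 7 of 7 of mouse 2, where it held for 53.4%. Summed over members there were 92 HA against 93 IgG reads in mouse 1 and 103 against 217 in mouse 2. Per kb of region the members carried 2.51 HA reads in mouse 1 and 3.40 in mouse 2, while the regions of the whole lists carried 6.94 and 8.66.

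The chromosome moved with this position, and its part in it was not tested. Regions on chromosome 12, which holds Rps7, had a median ratio of 1.64 in mouse 1 and 0.714 in mouse 2, below the list medians, and those on chromosome 15 had 2.86 and 0.783. With ratios divided by the median of their own chromosome, the members' median fold was 0.432 and 0.601 (mice 1 and 2).

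Genes that reached 20 reads in each mouse were tested with limma on log2 reads, each HA library paired with the IgG library of its mouse. At a limma adjusted p of 0.05, HA exceeded IgG on 29 of 392 genes (7.40%) and was lower on 95 (24.2%), with 43 and 135 unadjusted. Of the 32 members 3 had enough reads in both mice to be tested, and these 3 fell. Rps7 fell by 1.62 on the log2 scale (SE 0.25, limma adjusted p = 0.0272), and it was lower in 2 of 2 mice. For Rpl8 the log2 difference was -1.20 (SE 0.20, limma adjusted p = 0.0306), and for Rpl37 it was -1.09 (SE 0.19, limma adjusted p = 0.0329), each lower in 2 of 2 mice. These SEs come from the spread between the 2 mice and across genes, not from the read numbers, and can be smaller than the counting error.

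These calls depend on the pairing. Libraries were not scaled between mice, and the regions of a gene differed by mouse. A fit without the replicate block also holds those differences. Without the replicate block 13 genes were higher (3.32%) and 0 lower (0.00%; 0 also unadjusted), and the limma adjusted p of all 3 members was 0.997. The median log2 difference of the tested genes was -0.38. When libraries were scaled to bring it near 0, Rps7 fell by 1.23 and Rpl8 by 0.81 (limma adjusted p = 0.000264 and 0.0286). Rpl37 then had a log2 difference of -0.70, past the threshold no longer (limma adjusted p = 0.0706). The labels number the mice without more detail, so p-values measure the spread between these samples, which may be technical.

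**Figure D3:**
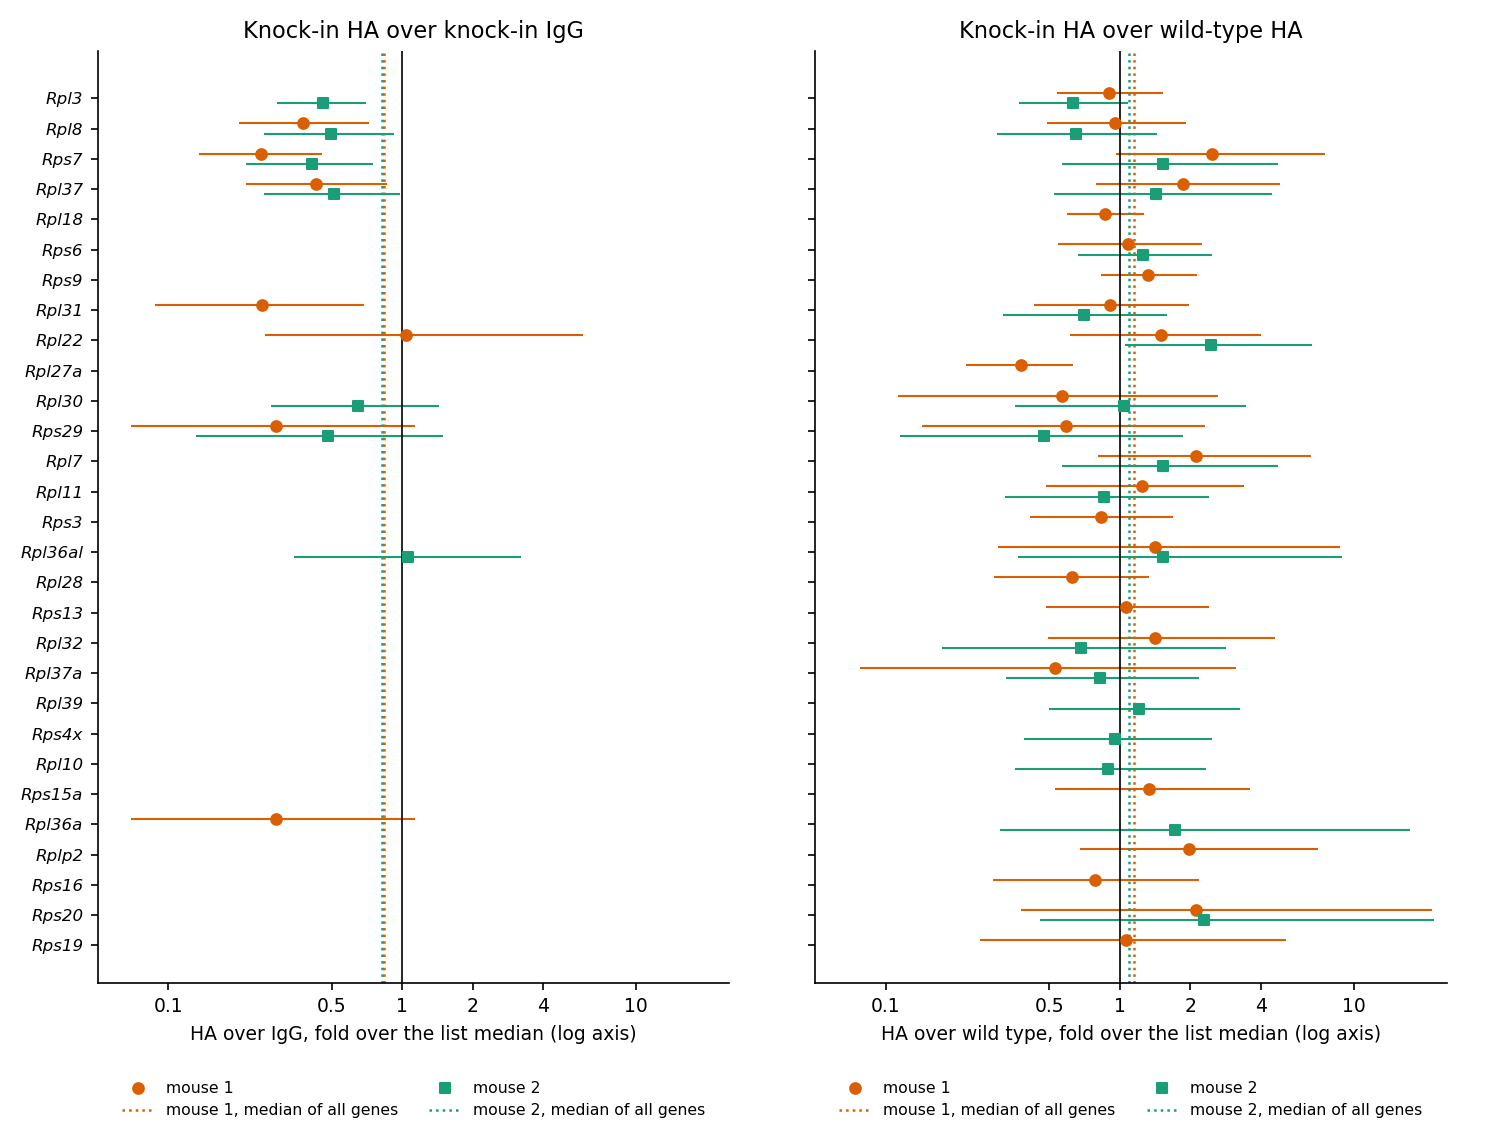
Fold of the 29 members shown (rows, ordered by reads) in HA over IgG (left) and HA over wild-type HA (right), relative to the median of the list, on a log axis. Orange circles are mouse 1 and green squares mouse 2, lines are 95% counting intervals, dotted lines the median of all genes with at least 20 reads and the black line 1. Over IgG the members with at least 20 reads, 3 and 5, lie below 1 in both mice, as do 60.7% and 64.8% of all such genes, and over wild type members lie on both sides.

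Against anti-HA from the wild-type mouse, members lay around the middle of the list. The list medians were 1.41 in mouse 1 and 1.75 in mouse 2. Members with at least 20 reads, 19 and 14, had a median fold of 1.06 (range 0.378 to 2.48) and 0.921 (0.631 to 2.45), and all 1942 and 1677 such genes had 1.15 and 1.10. At least 2-fold were 2 of 19 members and 1 of 14, against 13.4% and 11.6% of genes. At or below 0.5-fold were 1 and 0, against 4.22% and 4.59%. The counting interval lay below 1 for 1 of 28 listed members and 0 of 20, against 4.38% and 4.88% of listed genes, and above 1 for 0 and 1, against 9.27% and 6.35%. HA did not outnumber wild type in 6 of 28 listed members and in 1 of 20, against 9.67% and 5.86% of genes. On the scale of the pooled ratio, where the ribosomal RNA gene Rn18s-rs5 alone holds 79099 wild-type reads, the members' median became 1.76 and 1.75 and that of all genes 1.91 and 2.08.

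The members differed among themselves over wild type, in the small subunit first. Rps7, the lowest member over IgG in both mice, held 21 HA against 6 wild-type reads in mouse 1. At 2.48-fold it was the highest member of that list (bounds of 0.968 and 7.51). In mouse 2 it held 16 against 6, 1.52-fold (bounds of 0.566 and 4.75). Both intervals include 1.

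Rps6, the substrate of S6 kinase, held 23 HA against 15 wild-type reads in mouse 1 and 33 against 15 in mouse 2 (1.09-fold and 1.26-fold). Both intervals include 1.

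Rps9 was listed in mouse 1 only, with 56 HA against 30 wild-type reads (1.32-fold). Its region is long, 29.8 kb at chr7:3677201-3707000 with Tmc4, Tsen34 and Mboat7, so these reads cannot be given to Rps9 alone.

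Rps3, Rps13 and Rps15a had 23 to 37 reads in mouse 1 and folds of 0.833 to 1.33, and Rps4x held 15 HA against 9 wild-type reads in mouse 2. The Rps13 region, 19.4 kb long, also lay on Pik3c2a. Rps16, Rps19, Rps20 and Rps29 had 8 to 19 reads per list, too few to place them. The Diamond-Blackfan anaemia gene Rps19, for example, held 6 HA against 4 wild-type reads, with an interval of 0.252 to 5.12.

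In the large subunit, Rpl22 held 17 HA against 8 wild-type reads in mouse 1, 1.50-fold with bounds of 0.615 and 4.03. The 30 against 7 reads of mouse 2 are 2.45-fold (interval 1.05 to 6.61), the highest among members of that list. It was the only member value over wild type whose interval lay above 1. Most of these reads lay at the end of the gene, in chr4:152332251-152334000 with 20 HA against 6 wild-type reads.

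Rpl7 held 18 HA against 6 wild-type reads in mouse 1, 2.12-fold with bounds of 0.808 and 6.54, then 16 against 6 in mouse 2, 1.52-fold with bounds of 0.566 and 4.75. Rpl37 held 21 and 8, then 15 and 6 (1.86-fold and 1.43-fold). Both were the higher in HA in both mice without an interval above 1. The Rpl7 regions also lay on Rdh10.

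Rpl3 held 37 HA against 29 wild-type reads in mouse 1 and 32 against 29 in mouse 2 (0.904-fold and 0.631-fold), the latter the lowest of its list among members with at least 20 reads. Its region was the only one of a member with the same coordinates in both wild-type lists that could be tested. With 1 wild-type library, limma took the spread from the 2 HA libraries alone, so its calls hold no variation of the control. On those terms 9 of 71 such regions were higher and 23 lower (12.7% and 32.4%). For Rpl3 the difference on the log2 scale was -0.41 (SE 0.31, limma adjusted p = 0.336), and it became 0.42 with the pooled ratio as the scale (limma adjusted p = 0.131).

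Rpl8 held 23 HA against 17 wild-type reads, then 16 against 14 (0.958-fold and 0.653-fold), and Rpl31 18 and 14, then 16 and 13 (0.910-fold and 0.703-fold). Rpl27a was the lowest member of the mouse 1 list, with 24 HA against 45 wild-type reads (0.378-fold, interval 0.220 to 0.633). It was the only member value over wild type with an interval below 1. Its region, 22.6 kb at chr7:109519201-109541800, runs past the gene over St5 and snoRNA genes, so the reads are not those of Rpl27a alone. Rpl18 held 66 and 54 reads (0.866-fold) in a region of 21.0 kb with Car11, Sphk2 and Dbp.

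Rpl11, known as a binder of MDM2, held 14 HA against 8 wild-type reads and then 12 against 8. Rpl37a held 3 and 4, then 13 and 9, and Rpl30 held 4 and 5, then 11 and 6. Rpl28 held 15 and 17 in mouse 1, and Rpl10 and Rpl39 held 14 and 9 and 17 and 8 in mouse 2. Folds of these 6 genes ran from 0.531 to 1.24 with every interval including 1. The Rpl39 region, 22.6 kb long, also lay on Upf3b, so its reads are not those of Rpl39 alone. Rpl32, Rpl36a, Rpl36al and the stalk protein gene Rplp2 had 8 to 19 reads per list and intervals that include 1.

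The same region of a gene was read in all 3 libraries where it was in both lists of a mouse, which gives HA, IgG and wild-type reads side by side. In mouse 1 the 6 members with such a region summed to 87 HA, 87 IgG and 47 wild-type reads, and in mouse 2 the 7 members summed to 103, 217 and 70. Rps7 had 21, 29 and 6 reads in mouse 1 and 16, 41 and 6 in mouse 2. Rpl37 had 21, 17 and 8, then 15, 31 and 6.

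On Rps7 the wild-type anti-HA library was therefore the lowest of the 3 and IgG the highest in both mice, and on Rpl37 wild type was again the lowest. Rpl8 had 23, 21 and 17 reads, then 16, 34 and 14, and Rpl3 in mouse 2 had 32, 74 and 29. Rpl31 and Rps29 in mouse 1 had 5 to 11 reads in every library with overlapping counting intervals. Rpl22 in mouse 1 had 9, 3 and 3, and Rpl30 and Rpl36al in mouse 2 had 11, 18 and 6 and then 8, 8 and 3.

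IgG reads exceeded wild-type reads on 4 of 6 members in mouse 1 (2 were equal) and on 7 of 7 in mouse 2. These counts have no read minimum, and 3 and 5 of these members had at least 20 IgG and wild-type reads together. Among all regions shared by both lists of a mouse with at least 20 such reads, IgG exceeded wild type on 17.4% of 397 and 79.0% of 462. The median ratio of IgG to wild-type reads was 0.509 and 2.28 over those regions, and 0.667 and 2.55 on chromosomes 12 and 15, where most of the members compared here lie. Library depths are unknown, so the ratio of the libraries as a whole is not fixed by these counts. In precipitated bulk tissue, fewer cells of a type and less RNA per cell also cannot be told apart.

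**Figure D4:**
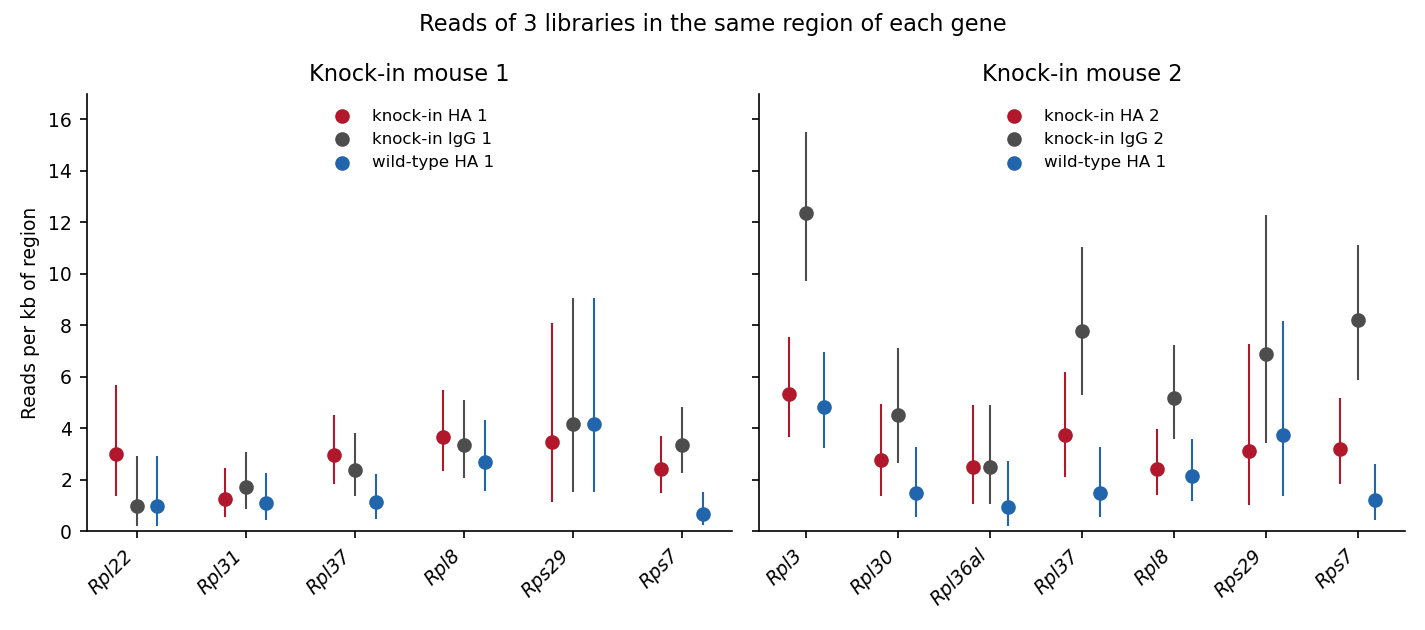
Reads per kb of region (y axis) of the knock-in HA (red), knock-in IgG (grey) and wild-type HA (blue) libraries in the same region of each member (x axis), for mouse 1 (left) and mouse 2 (right), not scaled for depth. Points are single libraries and lines 95% counting intervals; on Rps7 IgG is the highest and wild type the lowest in both mice.

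Other genes of the translation machinery were taken from lists chosen with earlier results known, and are described by counts only. Mitochondrial ribosomal proteins are a separate family that builds the ribosome of the mitochondrion. Of 78, 6 and 0 were listed over IgG and 14 and 11 over wild type. Mrps25 held 35 HA against 6 IgG reads and Mrpl35 39 and 9 in mouse 1, 2.02-fold and 1.50-fold, both with intervals that include 1. Only these 2 of the family had at least 20 reads over IgG, too few to place the family. Both lay above the median of the mouse 1 list, where 60.7% of all such genes lay below it.

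Other mRNAs with a TOP motif encode, among others, the elongation factor EEF2, the poly(A)-binding protein PABPC1 and the splicing factor HNRNPA1. In mouse 2 over IgG, 6 of them had at least 20 reads, with a median of 0.720-fold. Hnrnpa1 held 51 HA against 127 IgG reads (0.424-fold, interval 0.300 to 0.591) and Pabpc1 34 and 68 (0.528-fold, 0.339 to 0.809). Eef2 held 181 and 156 (1.23-fold, 0.984 to 1.53). In mouse 1 none of the 3 listed reached 20 reads. Over wild type the medians were 1.10-fold in both mice (4 and 5 genes).

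Of the 43 translation factors, 4 in mouse 1 and 1 in mouse 2 had at least 20 reads over IgG. Eif5, which acts in start codon selection, held 30 HA against 25 IgG reads in mouse 1 and 32 against 66 in mouse 2, at 0.415-fold and 0.512-fold with both intervals below 1. Eif4g3 held 35 and 18 in mouse 1 (0.672-fold) and Eif1ax 31 and 8 (1.34-fold). The ribosome assembly gene Ncl held 12 and 5 in mouse 1, and Fbl and Nop2 had regions over wild type only, at 0.929-fold and 0.739-fold in mouse 1. The snoRNA host Snhg11 held 468 HA against 1004 IgG reads in mouse 2 (0.492-fold, interval 0.440 to 0.550). Fau, whose protein is made as a fusion with a ubiquitin-like domain, had no region.

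In the authors' deposited table, the adjusted p of member regions over IgG in mouse 1 ran from 0.0701 to 0.649, so 0 of 7 lay below 0.05, against 64.6% of all regions. By the authors' deposited table, 5 of 7 did so in mouse 2 (87.3% of all regions), and 21 of 30 and 14 of 22 over wild type (82.3% and 78.8%). HA reads did not outnumber IgG reads in any of the 7 in mouse 2, which also held for 53.4% of all listed genes there. Those reads are not scaled for depth and the region caller is not named, so what a low p meant there is not known. These p-values belong to single pairs of libraries and were not tested for a difference between members and other regions.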

How the data were processed

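Hippocampal RNA precipitated with anti-HA or mouse IgG was sequenced from 2 knock-in mice and 1 wild-type mouse. Libraries were read with 50 cycles on a HiSeq, per the labels' protocols. TopHat, TopHat2, GRCm38 and mm10 are named by the submitters' processing notes, and rtracklayer 1.28.9 and mm10 by the file headers; no source used here names the region caller. The deposited lists hold, in other units, a read number of each library per region, unscaled, and the authors' scores and adjusted p-value. Total depth per sample is unknown, so precision is given by counting intervals.

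The members and gene lists were chosen with earlier results of these data known. Regions that the authors' annotation puts inside, across or around a gene were taken as its own. Reads were summed per gene and list, with a minimum of 20; a control of 0 was set to 3 reads. Folds were divided by the list's median ratio. The counting intervals take the whole numbers in the lists as read counts. Count-based models had been planned but were not run. Instead limma 3.58.1 (R 4.3.3) was fitted to log2(reads + 0.5), with Benjamini-Hochberg adjustment across all genes tested. On simulated data with 78 of 392 genes changed by a log2 of 3, it recovered 96.2%. That change is larger than those of the tested members, so recovery of changes of their size was not tested.

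HA and IgG of one number come from one mouse, as the labels number them, so mouse was a block. Across 392 genes the log2 differences between mice correlated between HA and IgG (r = 0.69); the regions of a gene also differ between mice. Members with at least 20 reads in a list were named, the 12 with most reads in full, with the highest and lowest of each list and up to 3 genes per gene list. A few genes that this rule would name are not reported here, though they stay in the counts and medians. Markers and values by list were computed with Python 3.11.15, pandas 2.3.3 and scipy 1.17.1. Alternatives covered scaling, read minimum, region choice, the block and leaving out a mouse.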

Additional observations from a re-analysis of the deposited data

How the results depend on the processing

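Depth limits all member values: most rest on 5 to 40 reads per library. Count-based fits (edgeR with TMM, DESeq2) were not run. The number of called genes could not be given without one mouse, since 1 pair leaves no residual degrees of freedom; without replicate 1 or 2 the log2 difference over IgG was -1.25 and -1.99 for Rps7, -0.99 and -1.40 for Rpl8 and -0.94 and -1.24 for Rpl37. Of the values recomputed for counts, medians and calls, 46 stayed within their limits and 33 did not; the cause was not tested.

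Without the replicate block, genes called over IgG went from 29 higher and 95 lower to 13 and 0, and members from 3 lower to 0. Library sizes as summed reads gave 266 lower, scaling by the median of the genes tested gave 76 higher, and at least 50 reads left 1 tested member, which was lower. With the pooled ratio as the scale, the Rpl3 region over wild type turned from -0.41 to 0.42 and 31 identical regions were higher in place of 9. The pooled scale moved the members' median to 0.234 in mouse 2 over IgG and to 1.76 and 1.75 over wild type. It put 5 members at 0.5-fold or less in mouse 2 over IgG, and 7 and 6 at 2-fold or more and 0 at 0.5-fold or less in mouse 1 over wild type.

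With at least 50 reads the median was 0.250 in mouse 1 over IgG (1 gene), and 0.904 and 0.631 over wild type (5 genes and 1). With at least 10 reads, 6 members of mouse 1 over IgG were at 0.5-fold or less, and in mouse 2 over wild type 2 were at 2-fold or more and 1 at 0.5-fold or less. Regions assigned to no other gene gave 0.250 in mouse 1 over IgG (1 gene) and 1.28 over wild type (6 genes). Regions inside the gene gave 1.37 and 1.70 over wild type (2 genes each). Regions below an authors' adjusted p of 0.05 gave 1.34 in mouse 2 over wild type. Listed members became 0 in mouse 1 over IgG and 13 in mouse 2 over wild type at that limit, 3 and 17 in mouse 1 over IgG and over wild type with at least 20 reads per region, and 1, 0, 3 and 3 (IgG, then wild type) with regions inside the gene.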
